A study of Mus musculus with 14 samples.

Results

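The 7 lung tumors described here are those of a 14-tumor mouse series whose sequenced RNA held the least leukocyte transcript: KPY-Ctrl replicates 3, 4 and 5 and KPY-Setd2KO replicates 5, 6, 7 and 8. They were chosen from measured values, as the tumors at the low leukocyte end of the main axis of variation. On the first principal component of all 14 tumors, with 52.8% of the variance, the 7 lay between -109.3 and -67.62. The nearest of the others, KPY-Ctrl 6, was at 30.11. A mean of log2 leukocyte gene levels ran from 2.70 to 4.69 in the 7 tumors, and the lowest of the other 7 tumors stood at 5.91. All 14 tumors (6 KPY-Ctrl and 8 KPY-Setd2KO) arose in KPY mice, which carry Trp53 flox/flox and Rosa26 LSL-YFP/LSL-YFP, so that Cre recombinase removes p53 and marks the cell with yellow fluorescent protein. A lentivirus given into the airway delivered Cre and Cas9 with a guide RNA against bacterial beta-galactosidase in the KPY-Ctrl tumors or against Setd2 in the KPY-Setd2KO tumors. Per the study's methods each sample is live YFP-positive cells sorted from a microdissected tumor, although the labels name RNA of cell lines. The Cas9 cuts can leave in-frame alleles or uncut cells, the tumors came from fewer mice than tumors, and the mouse behind each tumor is not given in the labels, so that the tests treat tumors as independent and their p-values may be too small. The genotype effect compared here is therefore the effect within a set selected on the data.

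SETD2 is the histone methyltransferase that places the third methyl group on lysine 36 of histone H3 along the bodies of genes being transcribed. That mark recruits reader proteins linked to RNA splicing, mismatch repair, DNA methylation and the silencing of start sites inside genes. In lung adenocarcinoma SETD2 is a tumor suppressor that is recurrently mutated, and alveolar type 2 cells are a main cell of origin of such tumors.

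The RNA-seq libraries held 20072236 to 51828846 estimated counts each, and levels are given as CPM, a gene's count relative to a library total scaled by TMM over the 7 libraries alone. KPY-Ctrl 4 and 5 were the closest pair, with a pairwise dispersion (the squared biological coefficient of variation between the libraries) of 0.021, against 0.0855 for KPY-Setd2KO 5 and 6, 0.147 for KPY-Setd2KO 7 and 8 and 0.355 for KPY-Setd2KO 5 and 7. Xist and 3 of the 4 Y-linked genes examined had a female pattern in 1 of the 7 tumors, KPY-Ctrl 3, where the Y-linked gene Uty was still at 14.6 CPM, and a male pattern in the other 6. Along the first principal component of the 7 tumors alone, with 40.4% of the variance, the KPY-Ctrl tumors lay between -78.17 and -65.06. The KPY-Setd2KO tumors lay between 10.76 and 97.36. The second component, with 26.5%, separated KPY-Setd2KO 5 and 6, at -80.37 and -73.72, from KPY-Setd2KO 7 and 8, at 84.41 and 15.36.

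On the scale of all 14 libraries, Ptprc, which encodes the pan-leukocyte surface phosphatase CD45, was at 6.94, 16.1 and 12.3 CPM in KPY-Ctrl 3, 4 and 5 and at 5.48, 5.49, 16.8 and 27.0 CPM in KPY-Setd2KO 5, 6, 7 and 8. Csf1r, the macrophage growth factor receptor, was at 8.07, 20.5 and 13.03 CPM against 5.65, 8.53, 19.9 and 33.1 CPM. Epcam, an epithelial adhesion molecule, was at 495, 549 and 533 CPM against 595, 836, 479 and 444 CPM. The other 7 tumors had 214 to 714 CPM of Ptprc, 187 to 403 CPM of Csf1r and 73.8 to 279 CPM of Epcam. KPY-Setd2KO 7 and 8 were the highest of the 7 for Ptprc, and the genotypes overlapped for each of these 3 genes. In bulk RNA, fewer leukocytes and less RNA per leukocyte cannot be told apart. These genes describe the selection of the set and are given without a test.

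**Figure D1:**
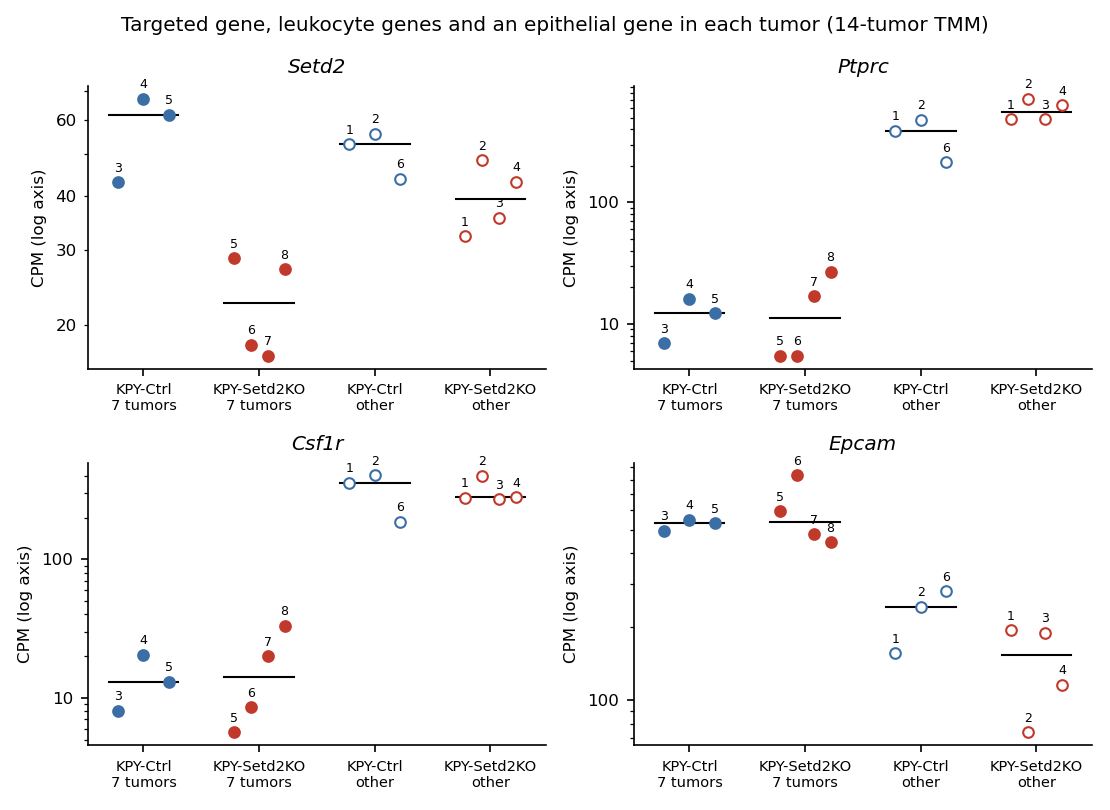
Level of Setd2, Ptprc, Csf1r and Epcam (CPM, log axis, scaled over all 14 libraries) in each KPY-Ctrl and KPY-Setd2KO tumor. Filled points are the 7 tumors described, open points the other 7, numbers are replicates and bars are group medians. The filled points lie at or below 27.0 CPM for Ptprc, and the open ones at or above 214 CPM.

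Setd2 itself was lower in every knockout tumor of the set. The Setd2 gene (ENSMUSG00000044791.16, GRCm38, chr9:110532597-110618633, plus strand) was measured at 47.5, 71.0 and 68.0 CPM in KPY-Ctrl 3, 4 and 5, a mean of 62.2 ± 12.8 CPM (SD, n = 3), and at 32.3, 20.2, 19.2 and 31.3 CPM in KPY-Setd2KO 5, 6, 7 and 8, a mean of 25.8 ± 6.98 CPM (SD, n = 4). The groups did not overlap, and the log2 difference was -1.27 (SE 0.24, adjusted p = 0.0306). An exact permutation test of the log2 levels gave a two-sided p of 0.0571, which is the smallest that 35 splits of 3 against 4 tumors allow. Guide-directed cuts do not delete the gene, so its mRNA is only a partial check of the labels. The call was lost without KPY-Ctrl 4 (adjusted p = 0.123), KPY-Ctrl 5 (0.125) or KPY-Setd2KO 6 (0.0809).

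In the other 7 tumors, scaled over their own libraries, Setd2 was at 45.6, 50.3 and 40.4 CPM in KPY-Ctrl 1, 2 and 6 and at 29.0, 43.3, 32.0 and 39.4 CPM in KPY-Setd2KO 1 to 4. The ranges overlapped there, and the log2 difference was -0.34 (SE 0.18, adjusted p = 0.425). The difference between the 2 effects, tested as an interaction, was -0.99 (SE 0.32, adjusted p = 0.219) and did not pass. Among the 7 measured H3K36 methyltransferase genes, 6 had a negative log2 difference and Setd2 alone passed. Of 20 genes for H3K36 demethylases and for readers of the mark, none passed, and their median log2 difference was -0.09.

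Across the 17739 genes tested, 753 passed an adjusted p under 0.05 with an absolute log2 difference above 1, which is 4.24% of them. Of these, 430 were higher in KPY-Setd2KO tumors (2.42%) and 323 lower (1.82%), while the median log2 difference of all genes was 0.04. The 2 groups of tumors did not overlap at 751 of the 753, whereas 26.4% of all genes tested had groups that did not overlap. Without KPY-Ctrl 4, or without KPY-Ctrl 5, edgeR called 0 genes, with 3324 and 3427 at an unadjusted p under 0.05, and without KPY-Setd2KO 6 it called 44. Without KPY-Setd2KO 5 it called 1285, and without KPY-Setd2KO 8 it called 474. With library totals as the only scaling, the median over all genes was -0.09 and the calls were split 364 higher and 447 lower, and limma with voom gave 334 higher and 378 lower.

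**Figure D2:**
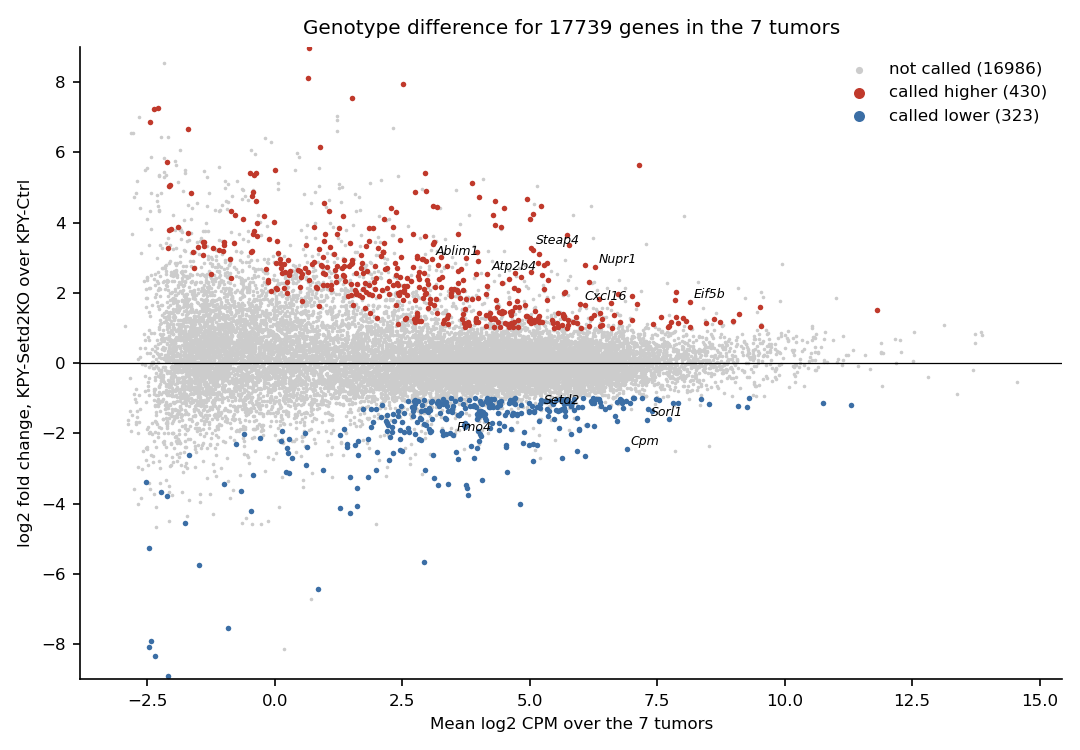
Log2 difference (KPY-Setd2KO minus KPY-Ctrl) against mean log2 CPM for the 17739 genes tested in the 7 tumors. Coloured points are the 430 genes called higher and the 323 called lower, and 3 genes lie outside the axis limit of 9.

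Among the genes with the smallest p that rose, Atp2b4, which encodes a plasma membrane calcium pump, was at 7.11, 7.19 and 5.31 CPM in KPY-Ctrl 3, 4 and 5 and at 37.04, 41.02, 35.4 and 39.2 CPM in KPY-Setd2KO 5 to 8. Every knockout tumor stood well above every control, a log2 difference of 2.54 (SE 0.17, adjusted p = 0.00556), the smallest adjusted p of the comparison. Steap4, a metalloreductase of iron and copper handling, was at 6.79, 11.5 and 9.27 CPM against 96.4, 113, 91.6 and 54.3 CPM, a log2 difference of 3.27 (SE 0.31, adjusted p = 0.0161). Nupr1, a stress-induced chromatin protein, was at 31.5, 22.5 and 26.3 CPM against 122, 241, 193 and 156 CPM, and its log2 difference was 2.73 (SE 0.27, adjusted p = 0.0161). Both genes separated the genotypes, with the wider gap at Steap4.

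Eif5b, a GTPase that joins the ribosomal subunits at the start of translation, was the most abundant of the 10 genes with the smallest p that rose, at 144, 136 and 151 CPM in the controls and 363, 420, 583 and 546 CPM in the knockouts. Its log2 difference was 1.74 (SE 0.21, adjusted p = 0.0188). Cxcl16, a transmembrane chemokine, was at 35.5, 31.3 and 32.2 CPM against 81.8, 122, 126 and 93.6 CPM, a log2 difference of 1.68 (SE 0.19, adjusted p = 0.0188). The controls of both genes lay within a narrow range. Irx3, a homeobox transcription factor, was at 15.9, 5.58 and 7.78 CPM against 90.7, 116, 79.7 and 75.6 CPM (log2 difference 3.21, adjusted p = 0.0188). Ablim1, an actin-binding LIM protein, was at 2.32, 2.48 and 3.15 CPM against 22.4, 25.8, 21.2 and 12.97 CPM (log2 difference 2.96, adjusted p = 0.0161). Igsf11, Sphk1 (sphingosine kinase) and Bcap29 completed the 10, with log2 differences of 2.28, 1.42 and 1.45.

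Of the genes that fell, the one with the smallest p was Cpm, the gene for the membrane enzyme carboxypeptidase M. Carboxypeptidase M transcript was at a level of 267, 367 and 326 (in the unit CPM) in KPY-Ctrl 3, 4 and 5 and of 68.7, 39.5, 71.0 and 55.9 in KPY-Setd2KO 5 to 8. The groups lay far apart, at a log2 difference of -2.45 (SE 0.23, adjusted p = 0.0161). Notch1, the receptor of juxtacrine signalling, was at 61.0, 65.6 and 50.6 CPM against 24.2, 20.9, 20.9 and 23.2 CPM, a log2 difference of -1.40 (SE 0.15, adjusted p = 0.0188). Sorl1, a sorting receptor of the endosome, was at 363, 290 and 254 CPM against 108, 81.6, 97.8 and 106 CPM (log2 difference -1.62, adjusted p = 0.0188). For both genes the 4 knockout tumors lay close together.

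Several metabolic enzymes stood beside them. Shmt1, cytosolic serine hydroxymethyltransferase of one-carbon metabolism, was at 74.7, 78.4 and 80.6 CPM against 33.6, 25.0, 31.3 and 33.7 CPM (log2 difference -1.33, adjusted p = 0.0188). Fmo4, a flavin-containing monooxygenase, was at 26.8, 24.7 and 25.3 CPM against 8.56, 4.45, 5.39 and 6.27 CPM, a log2 difference of -2.05. Hkdc1, a hexokinase relative, was at 32.3, 32.1 and 33.0 CPM against 12.2, 8.12, 12.6 and 10.98 CPM, a log2 difference of -1.57. None of these enzymes overlapped between genotypes. Arhgef26 (a guanine nucleotide exchange factor), Myo5c (a vesicle myosin) and Exph5 (a Rab27 effector) had log2 differences of -1.46, -1.27 and -2.05. BC018473, an antisense RNA on chromosome 11, was at 5.06, 4.01 and 11.4 CPM in the controls, at 0.073 and 0.056 CPM in KPY-Setd2KO 5 and 7, and listed at 0 in the other 2. Whether the counting used strand is not given in the sources used here, so BC018473 and the gene opposite it cannot be told apart. All 20 genes were also called without KPY-Setd2KO 7 and 8, and none of the 20 was called without KPY-Ctrl 4 or without KPY-Ctrl 5.

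**Figure D3:**
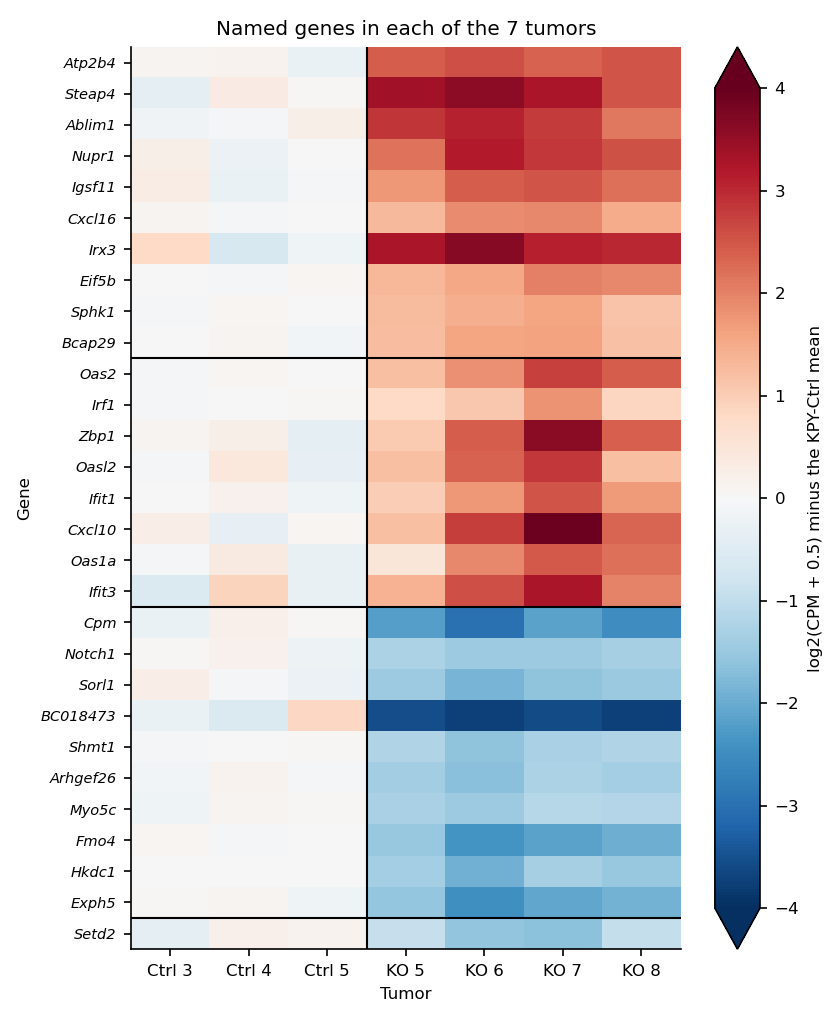
Level of the named genes in each of the 7 tumors, as log2 of CPM plus 0.5 minus the mean of the 3 KPY-Ctrl tumors, with colours limited at 4 on either side. Columns are tumors, and lines part the 10 genes of smallest p that rose, the 8 interferon genes, the 10 of smallest p that fell and Setd2. Red is above and blue below the control mean in all 4 KPY-Setd2KO columns.

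The interferon response held the most called genes of the gene lists examined. Interferons act through JAK kinases and STAT factors on genes that carry the interferon-stimulated response element, and their products sense viral RNA, block translation and attract T cells. Of 28 measured genes, 8 rose (2.42% of all genes did) and none fell. A positive log2 difference was found at 26, with a median of 1.30 against 0.04 for all genes. Every knockout tumor was above every control at 16 of the 28, which held at 12.7% of all genes tested. The 4 knockout tumors lay above the control mean by a median of 0.55, 1.47, 2.39 and 1.00 on the log2 scale, and the controls lay at -0.03, 0.18 and -0.18. KPY-Setd2KO 7 was thus the highest and KPY-Setd2KO 5 the lowest of the 4.

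For the interferon genes that were called and matched, RefSeq promoters of GRCm38.p6 (250 bases before to 50 after the start) are shown because many interferon-stimulated genes are known to carry this element. The capitals mark matches to its core, TTTC and a further TTTC spaced by any 2 bases, searched on both strands, and matches on either strand could overlap each other. Ifit1 (chr19:34640639-34640938, plus strand) held the core 104 and 85 bases before the start, and Cxcl10 (chr5:92348840-92349139, minus strand) held it on the reverse strand 213 bases before the start.
Ifit1: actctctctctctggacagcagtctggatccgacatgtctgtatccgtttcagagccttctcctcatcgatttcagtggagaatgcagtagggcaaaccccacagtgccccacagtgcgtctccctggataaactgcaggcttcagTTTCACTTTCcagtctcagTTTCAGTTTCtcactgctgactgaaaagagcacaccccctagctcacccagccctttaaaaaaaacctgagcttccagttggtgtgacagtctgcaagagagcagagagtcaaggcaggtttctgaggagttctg
Cxcl10: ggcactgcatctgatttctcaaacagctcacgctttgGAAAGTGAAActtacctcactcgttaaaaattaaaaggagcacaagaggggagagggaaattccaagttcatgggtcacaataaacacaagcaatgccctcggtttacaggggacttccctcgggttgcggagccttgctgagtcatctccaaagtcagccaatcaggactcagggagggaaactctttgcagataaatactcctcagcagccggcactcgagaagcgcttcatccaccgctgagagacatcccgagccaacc
Of all 32851 promoters of this length, 3.44% held the core. It was present in 4 of the 6 called interferon genes with a promoter in the table (Cxcl10, Ifit1, Ifit3 and Oas1a), in 13 of 19 genes of the whole list, in 18 of 272 matched genes that rose (6.62%) and in 5 of 251 that fell (1.99%). A match is a run of letters and not a measured binding site.

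Among the sensors, Oas2, an oligoadenylate synthetase that activates RNase L, was at 0.12, 0.17 and 0.14 CPM in KPY-Ctrl 3, 4 and 5 and at 1.00, 1.77, 3.78 and 2.93 CPM in KPY-Setd2KO 5 to 8 (log2 difference 3.99, SE 0.63, adjusted p = 0.0220). Ifit1, which binds RNA lacking a host cap, was at 3.67, 4.19 and 3.15 CPM against 7.78, 13.2, 23.0 and 13.1 CPM (log2 difference 1.96, SE 0.37, adjusted p = 0.0291). Oasl2, a relative of the synthetases, was at 4.01, 5.93 and 3.28 CPM against 10.6, 24.2, 33.7 and 10.5 CPM (log2 difference 2.16, adjusted p = 0.0405). Every knockout tumor was above every control for these 3 genes, with KPY-Setd2KO 7 the highest. Ifit3, Oas1a and Zbp1, a sensor of Z-form nucleic acid, had log2 differences of 2.45, 1.99 and 3.08. Irf1, a transcription factor of the response, was at 21.6, 22.2 and 23.0 CPM against 39.1, 47.5, 79.3 and 41.0 CPM, a log2 difference of 1.21 (SE 0.26, adjusted p = 0.0375). The chemokine Cxcl10 had a log2 difference of 3.89 (SE 0.80, adjusted p = 0.0339) at 0.21 to 0.59 CPM in the controls and 1.56 to 13.2 CPM in the knockouts. Oas1a, Oasl2 and Ifit3 have close paralogs among which the counting could split reads.

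The number of interferon genes called depended on single tumors. It was 5 without KPY-Setd2KO 7 and 8 (where 5.7% of all genes were called higher), 0 without KPY-Ctrl 4, KPY-Ctrl 5 or KPY-Setd2KO 6, 1 without KPY-Ctrl 3, 4 without KPY-Setd2KO 7, 2 without KPY-Setd2KO 8 and 14 without KPY-Setd2KO 5. The median stood at 1.16 without KPY-Setd2KO 7 and 8. On the scale of all 14 libraries, leukocyte transcript summed to 3836 and 3553 CPM in KPY-Setd2KO 7 and 8. The sums were 1061 and 1449 CPM in KPY-Setd2KO 5 and 6 and 2461 to 2849 CPM in the controls. With the leukocyte level as a covariate 3 genes were called, and with sex as a covariate 1 was. In the other 7 tumors the median was 1.15 and 0 of the list were called; Oasl2 had a log2 difference there of 2.70 (adjusted p = 0.166), Ifit3 of 2.33 and Cxcl10 of 0.07.

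Antigen presentation genes of MHC class I, which display peptides to CD8 T cells, had 10 of 10 positive log2 differences and none called, with a median of 1.85, or 0.91 without KPY-Setd2KO 7 and 8. H2-D1, a class I heavy chain, was at 649, 464 and 435 CPM in the controls and 774, 1586, 3033 and 1585 CPM in the knockouts (log2 difference 1.76, adjusted p = 0.0507). All knockout tumors were above all controls, by the smallest margin in KPY-Setd2KO 5. The 7 class II genes, which are typical of professional antigen-presenting cells, had a median of 0.24 and none called.

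Of the genes that build the respiratory chain, those on the mitochondrial genome all had positive log2 differences (13 of 13, median 0.84), 8 of them had every knockout tumor above every control (12.7% of all genes did), and 2 of them rose (2.42% of all genes did). The complex I subunit gene mt-Nd2 was at 2670, 1738 and 1769 CPM in KPY-Ctrl 3, 4 and 5 and at 3081, 5564, 8439 and 6392 CPM in KPY-Setd2KO 5 to 8 (log2 difference 1.51, SE 0.36, adjusted p = 0.0466). The other, mt-Nd3, was at 269.5, 190 and 225 CPM against 327, 484, 684 and 527 CPM (log2 difference 1.15, SE 0.26, adjusted p = 0.0439). The groups did not overlap, and KPY-Setd2KO 5 lay nearest to the controls for both genes. Neither was called without KPY-Setd2KO 7 and 8 (adjusted p = 0.0766 for mt-Nd2 and 0.0643 for mt-Nd3). The mitochondrial ribosomal RNA mt-Rnr1, a noncoding RNA of the same genome, moved with them at a log2 difference of 1.60. It cannot tell the amount of mitochondrial RNA from how the RNA was captured, and its part in the result was not tested. The median of the 13 genes was 0.44 without KPY-Setd2KO 7 and 8 and -0.35 in the other 7 tumors.

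Nuclear-encoded chain and ATP synthase subunits had a median log2 difference of 0.28, with 59 of 77 positive. Of the 77 genes, 1 rose (2.42% of all genes did). This was Atp5k, an ATP synthase subunit, at 35.8, 33.1 and 32.1 CPM against 56.1, 65.6, 112 and 83.0 CPM (log2 difference 1.23, SE 0.24, adjusted p = 0.0317). By complex, the medians were 0.34 for the 36 genes of complex I, -0.13 for 4 of complex II, 0.42 for 9 of complex III, 0.09 for 13 of complex IV and 0.28 for 15 of complex V. Cytoplasmic ribosomal protein genes had a median of 0.29 with 1 of 79 called, which rose (2.42% of all genes did). This was Rpl17, at 295, 281 and 227 CPM against 505, 584, 647 and 676 CPM (log2 difference 1.17, SE 0.18, adjusted p = 0.0219). Rpl17 has processed copies that could share its reads. The 78 mitochondrial ribosomal protein genes had a median of 0.19 and none called. Without KPY-Setd2KO 7 and 8 these 3 medians were -0.05, -0.04 and -0.01, and in the other 7 tumors the first 2 were 0.04 and -0.08.

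The longest transcript had at most 2000 bases in all 13 genes of the mitochondrial genome, in 59 of the 77 nuclear chain genes, in 66 of the 79 cytoplasmic and in 41 of the 78 mitochondrial ribosomal protein genes, against 21% of the 14196 protein-coding genes tested. Protein-coding genes whose longest transcript is at most 1000 bases had a median of -0.03, 0.24, 0.71 and 0.55 in KPY-Setd2KO 5 to 8 relative to the control mean, and those over 8000 bases had -0.05, -0.32, -0.63 and -0.41. The controls 3, 4 and 5 themselves lay at 0.18, -0.12 and -0.06 for the short class. KPY-Setd2KO 7 and 8 therefore held both the highest short and the lowest long medians. The part of length in the results of any list was not tested.

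Splicing is a process linked to H3K36 trimethylation, and of 90 measured splicing genes 6 passed the adjusted p alone (6.26% of all genes did), all of them higher and none with a log2 difference above 1. Sart1, a protein of the tri-snRNP, was at 46.2 to 53.2 CPM in the controls and 90.1, 100.1, 83.8 and 88.7 CPM in the knockouts (log2 difference 0.86, SE 0.14, adjusted p = 0.022). Snrnp70 of the U1 particle, Hnrnpd and Prpf38b had log2 differences of 0.88, 0.97 and 0.91, and Syf2 and Luc7l3 were the other two. The median of the list was 0.06. Of 68 ribosome biogenesis genes, 1 passed the adjusted p alone, Utp3, a processome component, at 62.3, 67.5 and 68.9 CPM against 107.7, 117.6, 117.8 and 110.6 CPM (log2 difference 0.78, SE 0.13, adjusted p = 0.0221).

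In the mTORC1 pathway, which couples nutrients to protein synthesis, 1 of 40 genes rose and 1 fell, and the median was -0.002. Of all genes tested, 2.42% rose and 1.82% fell. Ddit4, a stress-induced inhibitor of mTORC1, was at 23.4, 31.2 and 30.0 CPM in the controls and 64.9, 75.6, 58.1 and 51.9 CPM in the knockouts (log2 difference 1.15, SE 0.18, adjusted p = 0.0220). Sesn3, a sestrin that also restrains mTORC1, was at 46.6, 102.7 and 99.6 CPM against 35.6, 26.9, 31.2 and 34.9 CPM (log2 difference -1.37, SE 0.27, adjusted p = 0.0318). The genotypes did not overlap for either inhibitor, whose differences had opposite signs. Castor2, an arginine sensor family gene, and Tsc2, the GTPase-activating protein that holds mTORC1 off, passed the adjusted p alone, at log2 differences of 0.87 and -0.80.

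Genes of mitosis and DNA replication had negative log2 differences in 39 of 46 and a median of -0.42, and 17 of the 46 had every knockout tumor below every control (13.7% of all genes did). Ccnb2, a mitotic cyclin, was at 14.02, 21.2 and 24.4 CPM in the controls and 9.27, 6.30, 4.50 and 10.3 CPM in the knockouts (log2 difference -1.39, adjusted p = 0.0440). Pole, the leading-strand DNA polymerase, was at 13.2, 13.1 and 13.2 CPM against 8.88, 4.96, 5.83 and 4.58 CPM (log2 difference -1.12, adjusted p = 0.0457). Both fell in all 4 knockout tumors and were the 2 called of the 46 (1.82% of all genes were called lower). Kif23 and Cdc20 passed the adjusted p alone at -0.90 and -0.74. Of 24 DNA repair genes, 21 were negative and 1 fell (1.82% of all genes did). This was Atm, the kinase of the double-strand break response, at 23.2, 33.5 and 32.3 CPM against 15.3, 8.24, 7.45 and 10.6 CPM (log2 difference -1.51, SE 0.27, adjusted p = 0.0270). The list median was -0.46, and -0.35 without KPY-Setd2KO 7 and 8. The longest transcript of Atm has 9819 bases and that of Pole 7163. Medians of long transcripts were lowest in KPY-Setd2KO 7 and 8, but both genes were below every control in KPY-Setd2KO 5 and 6 as well. The part of length in these differences was not tested.

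Alveolar type 2 genes, those of surfactant-making cells, fell at 3 of 20 (1.82% of all genes did). Ctsh, a cathepsin that processes surfactant protein, was at 2766, 2709 and 2671 CPM in KPY-Ctrl 3, 4 and 5 and at 1141, 987 and 1323 CPM in KPY-Setd2KO 5, 6 and 7 and 1464 CPM in KPY-Setd2KO 8 (log2 difference -1.14, SE 0.19, adjusted p = 0.0224). Abca3, the lipid pump of lamellar bodies, was at 906, 888 and 879 CPM against 317, 286, 490.0 and 441 CPM (log2 difference -1.22, adjusted p = 0.0267). Slc34a2, a phosphate cotransporter, was at 3517, 4500 and 4367 CPM against 1439, 1619, 2453 and 1636 CPM (log2 difference -1.21, adjusted p = 0.0309). The controls were nearly equal at Ctsh and Abca3, and no knockout tumor reached them. The 20 genes had 13 negative and 7 positive log2 differences, the largest change being 2.78 at Lyz1 (adjusted p = 0.276). Summed on the scale of all 14 libraries, the list held 56720 to 80120 CPM in the controls. KPY-Setd2KO 7, at 76350 CPM, lay within that range, and KPY-Setd2KO 5, 6 and 8, at 25200, 37020 and 50830 CPM, lay below it. The median of the list was -0.31 over the 4 knockout tumors and -0.88 without KPY-Setd2KO 7 and 8, where 6 genes fell (2.52% of all genes did), and by tumor it was -1.07, -0.78, 0.28 and -0.32. Col4a3, a basement membrane collagen of the alveolar type 1 list, fell as 1 of 19 (log2 difference -1.71, adjusted p = 0.0253). The 19 had 12 negative and 7 positive log2 differences, the largest change being 2.62 at Cav1 (adjusted p = 0.1). None of 12 airway genes was called.

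Among 15 lineage factors, Gata6 passed the adjusted p alone at -0.92 and Nkx2-1, the lung lineage factor, had -0.33. In the epithelial identity list, given without a test since Epcam describes the set, Cldn4 was at 140, 154 and 178 CPM against 332, 534, 342 and 315 CPM, and Elf3 at 60.5, 36.3 and 40.1 CPM against 78.6, 146, 115 and 105 CPM. The list as a whole was divided, with 9 of its 16 genes positive, 7 negative and a median of 0.15. Every knockout tumor was above every control at 4 of the 16 (12.7% of all genes were), among them the tight junction gene Cldn4 and the Ets factor gene Elf3. Every knockout tumor was below every control at 6 of the 16 (13.7% of all genes were). The log2 differences of the 16 ran from -0.69 to 1.64, so Cldn4 and Elf3 do not stand for the list.

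Genes linked to tumor progression and to mesenchymal change differed among the knockout tumors. In the list of 23, Plaur, the urokinase receptor, rose, at 54.2, 71.5 and 68.1 CPM in the controls and 348, 332, 127 and 155 CPM in KPY-Setd2KO 5 to 8 (log2 difference 1.90, SE 0.39, adjusted p = 0.0338). Ly6a, a surface antigen of progenitor cells, rose by a log2 difference of 2.78, and Cldn2, a pore-forming claudin, fell from 161, 242 and 218 CPM to 81.2, 74.3, 62.6 and 44.8 CPM (log2 difference -1.65, SE 0.24, adjusted p = 0.0188). KPY-Setd2KO 5 and 6 were the highest for Plaur, and KPY-Setd2KO 8 was the lowest for Cldn2. The list median by tumor was 1.45 and 1.25 in KPY-Setd2KO 5 and 6 but -0.07 and 0.40 in KPY-Setd2KO 7 and 8. Over the 7 tumors 2 of the 23 rose and 1 fell (2.42% and 1.82% of all genes did). Without KPY-Setd2KO 7 and 8, 12 of the list were called higher (5.7% of all genes were). In the other 7 tumors the median was -0.41 while Cldn2 had -1.76.

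Pmaip1, a p53-responsive inducer of apoptosis, rose at a log2 difference of 3.02 (adjusted p = 0.0250), as 1 of 19 genes of the p53 list, in tumors that lack p53 by design. Junb, an AP-1 subunit, and Hspa1b, a heat shock chaperone with a near-identical neighbour, rose among 27 immediate early and heat shock genes, at 1.30 and 1.03. Ankrd37, a hypoxia target, was the gene called among 26 of glycolysis and hypoxia (1.18), and Wnt4, a secreted ligand, among 30 of Wnt signalling (2.41). Across all genes tested, 2.42% were called higher and 1.82% lower. Markers of other cell types mostly had positive log2 differences, at 15 of 17 fibroblast and smooth muscle genes (median 0.90) and 5 of 5 hemoglobin genes (median 2.29). So had, by the selection untested, 44 of 46 leukocyte genes (median 0.92). Relative to the control mean, the leukocyte median was -0.54 and -0.09 in KPY-Setd2KO 5 and 6 but 1.27 and 1.715 in KPY-Setd2KO 7 and 8. The leukocyte list had a median log2 difference of -0.37 without KPY-Setd2KO 7 and 8. The part of these markers in the other results was not tested. In the fibroblast and smooth muscle list 1 gene rose, Mgp, a matrix protein gene, at 2.50, and 1 fell, Acta2, smooth muscle actin, at 30.9, 40.7 and 41.9 CPM against 5.69, 2.28, 5.67 and 8.99 CPM (log2 difference -2.75, SE 0.39, adjusted p = 0.0188). Myh11, smooth muscle myosin, had a log2 difference of 3.27 (adjusted p = 0.059) at levels below 1 CPM in every tumor. It was at 0.049, 0.087 and 0 CPM in the controls and 0.29, 0.66, 0.61 and 0.51 CPM in the knockouts. Of 19 endothelial genes none was called and 18 were positive (median 1.84). The sums that follow are on the scale of all 14 libraries. Endothelial transcript summed to 89.9 to 121 CPM in the controls and 135 to 210 CPM in the knockouts. Summed hemoglobin transcript was 66.1 to 106 CPM in the controls and 99.5, 313, 447 and 720 CPM in KPY-Setd2KO 5 to 8.

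**Figure D4:**
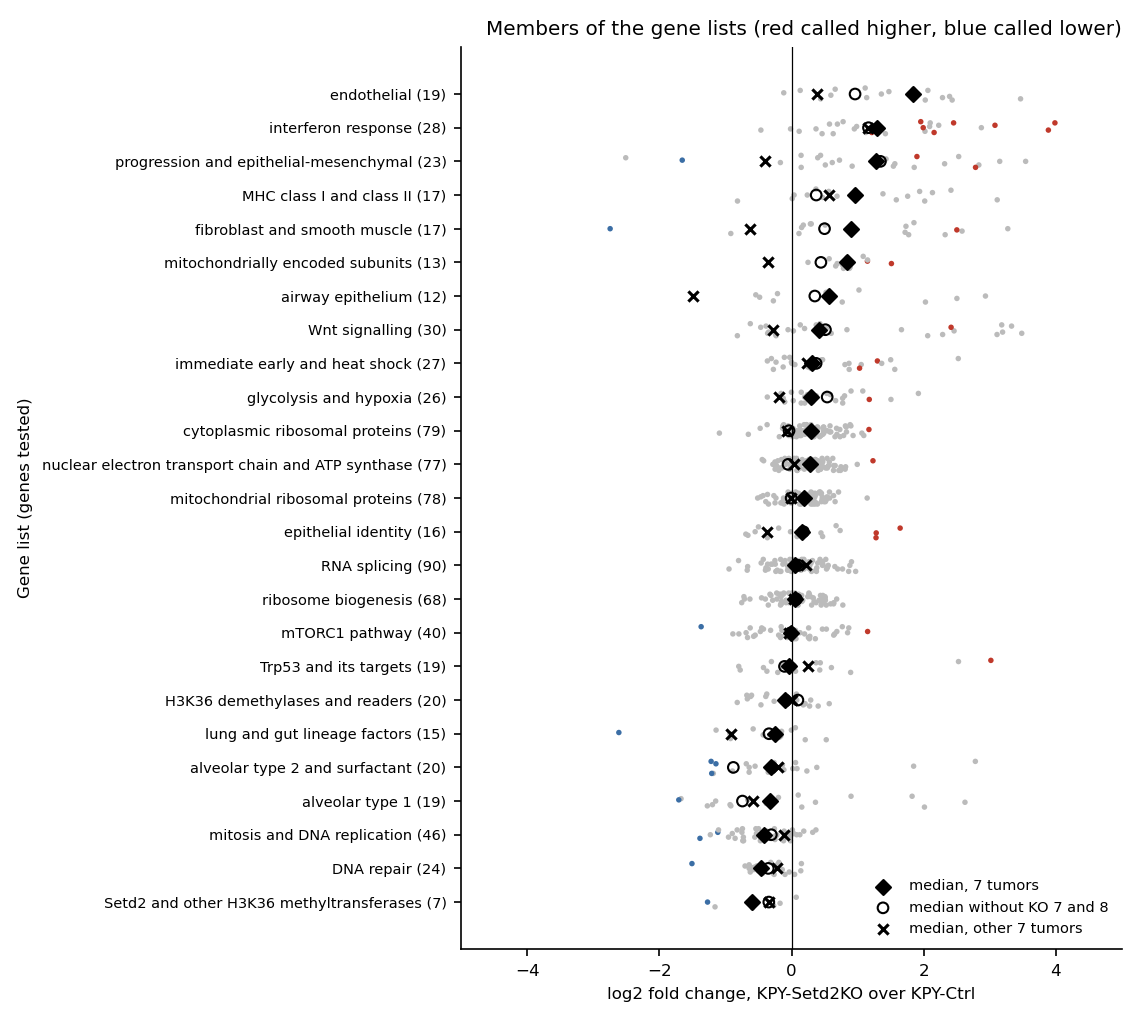
Log2 difference (KPY-Setd2KO minus KPY-Ctrl) of each measured gene in the gene lists, 1 list a line, red where called higher and blue where called lower. Diamonds are the list medians in the 7 tumors, circles those without KPY-Setd2KO 7 and 8 and crosses those in the other 7 tumors. The interferon list has its median at 1.30, and the mTORC1 list at -0.002.

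Without KPY-Setd2KO 7 and 8, the tumors of intermediate leukocyte level, 1514 of 18430 genes were called (8.21%), of which 1050 were higher and 464 lower (2.52%). Of the 753 genes, 551 were called again in the same direction, which is 73.2% of the first list and 36.4% of the second. Both fits share the 3 control tumors, and the common dispersion was 0.17 over 7 tumors and 0.0991 over 5. The added genes include several that are high in 2 knockout tumors only, chosen here after their values were seen. Cxcl5, a neutrophil chemokine, was at 7.99, 8.34 and 6.50 CPM in the controls, at 215 and 190 CPM in KPY-Setd2KO 5 and 6 and at 20.8 and 5.98 CPM in KPY-Setd2KO 7 and 8. Itgb3, an integrin subunit, was at 2.61, 3.72 and 2.20 CPM, then at 134 and 98.7 CPM, then at 2.78 and 8.18 CPM. Their adjusted p-values were 0.000129 and 0.000351 without KPY-Setd2KO 7 and 8, and 0.0827 and 0.0766 over all 7 tumors. Both genes were taken from those called only without KPY-Setd2KO 7 and 8. That choice favors genes high in KPY-Setd2KO 5 and 6, so the grouping of the tumors is not a separate result.

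In the other 7 tumors, taken alone, edgeR called 0 of 16320 genes, with 2245 at an unadjusted p under 0.05 and a smallest adjusted p of 0.166, and DESeq2 called 247. These tumors share no sample with the 7. Of the 753 genes, 699 were tested there, and 567 had the same sign (81.1%), against 61.6% of all 15647 genes tested in both sets. The genes that rose had the same sign at 287 of 384 (74.7%) with a median log2 difference of 0.46, and those that fell at 280 of 315 (88.9%) with a median of -0.80. The medians in the 7 tumors, where the genes were chosen, were 2.27 and -1.47. The genotype effect itself differed between the 2 sets at 6 of 18929 genes (0.0317%), of which Atp2b4 was 1.

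By chromosome, over protein-coding genes and relative to the control mean, KPY-Setd2KO 5 to 8 had medians of -0.22, -0.19, -0.21 and -0.26 on chromosome 9, which carries Setd2. The X chromosome had -0.25, -0.24, -0.11 and -0.30, and chromosomes 3, 6, 10, 16 and 17 were also negative in all 4, at -0.13 to -0.08 for chromosome 10 and -0.19 to -0.09 for chromosome 16. Of all genes tested on chromosome 9, 24 of 1040 were called higher (2.31%) and 40 lower (3.85%), and on the X chromosome 16 of 572 (2.8%) and 24 (4.2%). In the window from 110 to 120 Mb that holds Setd2, 51 genes had medians of -0.29, -0.27, -0.39 and -0.36. The lower medians were not limited to that window. They held in all 4 knockout tumors for each window except that from 0 to 10 Mb, where the medians were 0.13, 0.12, 0.33 and 0.08, and that from 120 to 130 Mb, where KPY-Setd2KO 7 had 0.06. Over all genes tested on chromosome 9 the median log2 difference was -0.07 in the 7 tumors and -0.09 in the other 7. Chromosome 19 was higher in KPY-Setd2KO 5 and 6 (0.21 and 0.18) than in KPY-Setd2KO 7 and 8 (-0.03 and 0.02). Copy number was not measured.

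**Figure D5:**
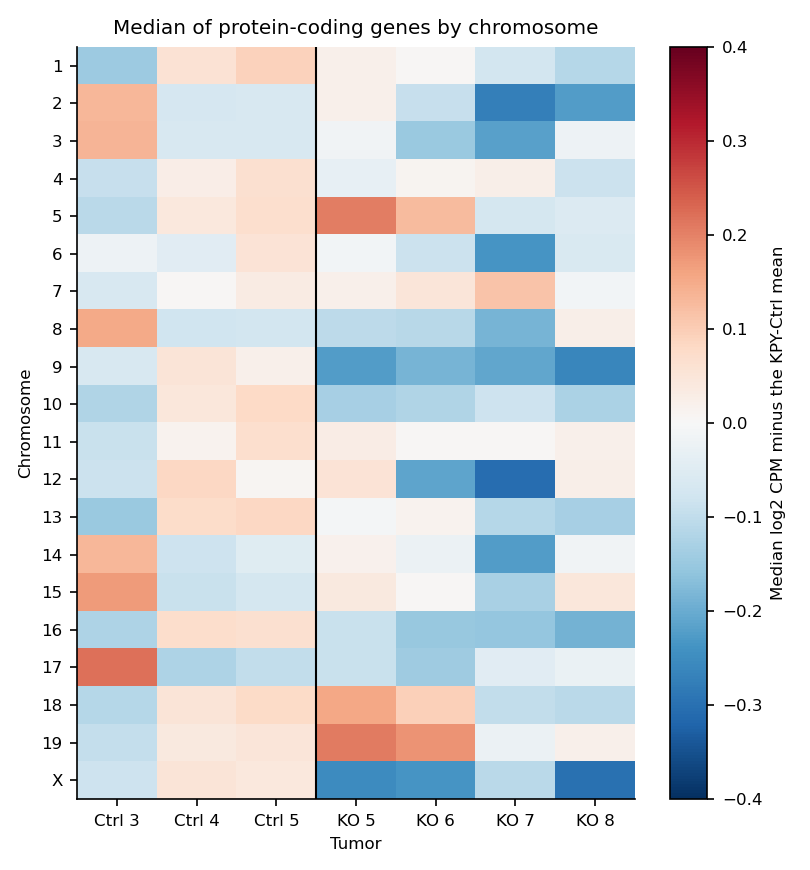
Median log2 CPM of the protein-coding genes of each chromosome in each of the 7 tumors, relative to the mean of the 3 KPY-Ctrl tumors. Chromosome 9 lies between -0.26 and -0.19 and the X chromosome between -0.30 and -0.11 in the 4 KPY-Setd2KO tumors.

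By kind of gene, protein-coding genes made up 337 of the higher and 302 of the lower calls among 14196 tested. Long intergenic RNAs were called higher at 27 of 634 (4.26%) and lower at 3 (0.473%), and processed pseudogenes at 28 of 981 (2.85%) and 5 (0.51%), whose counts can hold reads of their parent genes. Among protein-coding genes, 18 of 827 with a longest transcript over 8000 bases rose and 47 fell, whereas 25 of 643 of up to 1000 bases rose and 6 fell. The median log2 difference ran from 0.43 in the shortest class to -0.25 in the longest, from 0.08 to -0.15 without KPY-Setd2KO 7 and 8, and from -0.04 to -0.26 in the other 7 tumors.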

How the data were processed

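RNA of 14 tumors was sequenced as single reads. Per the study's methods the authors prepared it from sorted YFP-positive cells with RNeasy Plus Micro and NeoPrep kits, whereas the labels name cell lines, RNeasy Mini and TruSeq Stranded mRNA, and this difference could not be settled. Per the submitters' processing notes, Salmon 0.8.2 assigned reads to GRCm38.p5 transcripts. The authors deposited 1 table of estimated counts for 52550 genes, of which 52403 IDs matched GENCODE M21, and the 8 largest values are rounded. All library columns were mapped to a tumor by name.

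The 7 columns were rounded to whole numbers, filtered (filterByExpr), scaled by TMM and tested for genotype with edgeR 4.0.16 (quasi-likelihood, robust) in R 4.3.3. Adjusted p-values are Benjamini-Hochberg, and called genes had an adjusted p under 0.05 with a log2 difference beyond 1 in either direction. SE is the log2 difference divided by the square root of F. The scripts were tested on simulated data. The named genes are Setd2, the markers, the 10 with the smallest p in each direction among those called, and in each of 29 gene lists the called genes plus those of smallest p and of largest change, of which the text gives part, since some items are not reported here. The 10 genes of the fit without KPY-Setd2KO 7 and 8 were chosen after their values were seen. The members and lists were chosen with earlier results of these data known. The same model was fitted to the other 7 tumors and, as an interaction, to all 14. Promoters are from RefSeq.

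Alternatives were RLE and library-size scaling, other filters, limma 3.58.1 with voom, DESeq2 1.42.0 (the tool the authors used), a leukocyte or sex covariate, all 14 tumors, and leaving out tumors. The p-values measure the spread between tumors, and more deeply sequenced libraries have smaller counting error.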

Additional observations from a re-analysis of the deposited data

Results flagged for a closer look

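The tumors of 1 genotype were compared with each other for the 89 named genes, and in 5 of them 1 of the 4 KPY-Setd2KO tumors stood apart by Dixon's test at 95%; chance gives about 1 in 20. Cldn4 was at 9.06 log2 CPM in KPY-Setd2KO 6 and at 8.30 to 8.42 in the other 3, and Adm, a hypoxia-responsive peptide hormone gene, had 2.09 there and -0.44 to -0.14 in the others. In KPY-Setd2KO 5, S100a8, a neutrophil alarmin, was at 1.46 against 2.13 to 2.24, and Hspa1b at 7.74 against 8.26 to 8.33. Wnt4 was at 3.92 in KPY-Setd2KO 7 against 2.60 to 2.83. Their causes were not tested.

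The genotype effect differed between the 7 leukocyte-poor tumors and the other 7 at 6 genes, by edgeR's interaction term over all 14 tumors. Atp2b4 had an interaction of 3.73 (SE 0.54, adjusted p = 0.0319), from log2 differences of 2.54 in the 7 tumors and -1.24 in the others. Gm42031, an unnamed gene model, had 2.67 (adjusted p = 0.0402), from 2.15 and -0.56. Acsf2, an acyl-CoA synthetase family gene, had -2.19 (SE 0.28, adjusted p = 0.022), from -1.47 and 0.67. Cd36, a fatty acid transporter, was at 902, 920 and 936 CPM on the scale of all 14 libraries in KPY-Ctrl 3, 4 and 5 and at 383, 307, 451 and 372 CPM in KPY-Setd2KO 5 to 8, while the other KPY-Ctrl tumors held 547, 682 and 627 CPM and KPY-Setd2KO 1 to 4 held 779, 848, 770 and 650 CPM. Its interaction was -1.58 (SE 0.23, adjusted p = 0.0319), and both genotypes of the other tumors lay between the 2 groups of the 7.

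Myh6, a cardiac myosin heavy chain, was at 102, 50.2 and 68.6 CPM in KPY-Ctrl 3, 4 and 5 and at 0.24, 1.21, 2.07 and 2.41 CPM in KPY-Setd2KO 5 to 8, and its interaction was -5.53 (SE 0.79, adjusted p = 0.0319). BC018473 had a fitted interaction of -8.94 (adjusted p = 0.00549), a size that depends on the prior count because KPY-Setd2KO 6 and 8 were at 0. The 7 tumors were chosen at the low leukocyte end of the main axis of variation, so set and leukocyte level cannot be told apart in the interaction. The number of genes that passed ran from 0 (without KPY-Ctrl 2, with 3116 at an unadjusted p under 0.05) to 18 (without KPY-Setd2KO 7), and DESeq2 gave 491.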

How the results depend on the processing

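The 753 calls became 2001 with DESeq2 (1349 higher and 652 lower), 1514 without KPY-Setd2KO 7 and 8 and 0 over all 14 tumors with edgeR (2311 at an unadjusted p under 0.05), and ran from 0 (without KPY-Ctrl 4 or 5) to 1285 (without KPY-Setd2KO 5) when 1 tumor was left out. They lay between 541 and 1111 with RLE or library-size scaling, either filter, limma with voom, either covariate or the adjusted p alone. DESeq2 called 752 of the 753 and the sex covariate 377, and of these alternatives only the fit to all 14 tumors reversed a sign, at 10 of the 753. The interaction count became 387 without KPY-Setd2KO 7 and 8 and 491 with DESeq2, and ran from 0 to 18 with 1 tumor left out. The other tumors gave 247 calls with DESeq2 and 0 to 1 with 1 tumor left out. The last DESeq2 count and these ranges were added after seeing the data. Setd2 had -0.743 over all 14 tumors (adjusted p = 0.175) and -1.48 to -1.15 with 1 tumor left out. The causes of these changes were not tested.

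Among the named genes, signs that reversed belong to genes that were not called, apart from BC018473, at 0.977 over all 14 tumors. Ptprc had -0.19 with limma, -0.96 with the leukocyte covariate and -1.05 without KPY-Setd2KO 7 and 8, and -0.316 to 0.574 with 1 tumor left out. Csf1r had -0.094, -0.902 and -0.914 in the same 3 fits and -0.255 to 0.678. Lyz1 ran from -0.292 to 3.18, and Xist from -8.76 to 1.39, with 1.26 under the sex covariate.

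Medians of the gene lists that moved by more than the spread between tumors were, over all 14 tumors, 0.309 for mitochondrial-genome subunits, 0.155 for splicing, 0.022 for airway, -0.039 for epithelial identity, -0.414 for lineage factors, 0.523 for progression, 0.699 for endothelial, -0.021 for fibroblast, 0.209 for p53, 0.514 for sex-linked and 0.283 for RNA quality genes. With library-size scaling splicing had -0.063, mTORC1 -0.121 and p53 -0.189. With the leukocyte covariate alveolar type 1 had -0.689, airway 0.134, lineage factors -0.432, leukocyte -0.313 and endothelial 0.959. Without KPY-Setd2KO 7 and 8 alveolar type 1 had -0.743, leukocyte -0.369 and endothelial 0.961. With at least 10 counts in every tumor endothelial had 0.621, fibroblast 0.291 and sex-linked 0.712, and with no filter fibroblast had 1.35. With the sex covariate immediate early and heat shock genes had 0.506 and RNA quality 1.01, and with limma sex-linked had 1.43. With 1 tumor left out airway ran from 0.252 to 0.839, lineage factors from -0.422 to -0.184, fibroblast from 0.528 to 1.61 and sex-linked from 0.92 to 1.49. No paired analysis was possible because the labels do not pair KPY-Ctrl with KPY-Setd2KO tumors. Depth limits the genes near 1 CPM, such as Oas2.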

Other observations

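The AP-1 site TGANTCA, bound by JUN and FOS proteins and searched on both strands, was in the promoter of 36 of 272 matched genes that rose (13.2%) and of 11 of 251 that fell (4.38%), and in 7.81% of all 32851 promoters and 6.92% of the tested genes. The NF-kB letters, GGGA and TTTCC spaced by any 1 base, were in 5 of the 272 (1.84%), which are Cachd1, Cxcl1, Cxcl2, Cxcl3 and Nfkb2, and in none of the 251, against 0.411% of all promoters. These shares are descriptions of letters in a window of 300 bases, with no test.

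Beside Cxcl5 and Itgb3, the genes with the smallest p among those called higher only without KPY-Setd2KO 7 and 8 include Slc20a1, a phosphate transporter, at 26.6, 24.2 and 28.5 CPM in the controls, 265 and 242 CPM in KPY-Setd2KO 5 and 6 and 25.6 and 52.2 CPM in KPY-Setd2KO 7 and 8. Lgr6, a receptor of R-spondins, was at 6.82, 8.50 and 6.06 CPM, then at 151 and 124 CPM, then at 2.61 and 9.45 CPM. Plpp3, a lipid phosphatase, was at 14.2, 13.4 and 11.2 CPM, then at 129 and 127 CPM, then at 16.2 and 15.98 CPM.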
